A study of Drosophila melanogaster with 19 samples.

Results

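The genes described here are orthodenticle (oc), empty spiracles (ems), buttonhead (btd), crocodile (croc) and cap-n-collar (cnc), which pattern the head of the Drosophila embryo. They were taken by name from the deposited table, in which all 5 were found among 17735 genes. Polyadenylated RNA was sequenced from single whole embryos of a line that carries a fluorescent histone, H2AvD-RFP. The control embryos were collected in cycle 12 (control C12), in cycle 13 (control C13), early in cycle 14 (control C14E) and late in cycle 14 (control C14L). The other embryos received double-stranded RNAs that knock down the mitotic cyclins CycA, CycB and CycB3 and were arrested in interphase of cycle 12. These were collected 15, 30, 50 and 70 minutes after mitosis 11 and are called C12-15min, C12-30min, C12-50min and C12-70min. The paper describes no injection of the control embryos it sequenced, so that injection and arrest cannot be told apart. C12-70min embryos are younger than control C14L embryos.

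In the early fly embryo the head is laid out by a small set of transcription factors that act much as the gap genes of the trunk do. The maternal gradient of Bicoid and signalling by the receptor Torso at the pole set up broad, overlapping domains of these factors in the anterior cap. oc and ems encode homeodomain proteins of the Otx and Emx type, and btd encodes a zinc finger protein of the Sp family. Loss of any of the 3 deletes a set of neighbouring head segments, which is why they are called head gap genes. croc encodes a forkhead protein of the most anterior blastoderm and is needed for the clypeolabrum and the intercalary region. cnc encodes a bZIP protein that pairs with the small Maf protein MafS, and it acts in the labrum and the mandibular segment, while another form of it is a widespread stress response factor held by Keap1.

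The deposited values are log2(CPM + 1), where CPM is the count of a gene per mega-read assigned to genes. There is 1 column for each of the 8 conditions, and each is the authors' mean over 2 embryos, or over 3 in control C13 and control C14E. The labels list 19 embryos and the means hold 18, since the authors left out 1 control C12 embryo. The 9 decimals of the mean allow the whole reads of each embryo to be worked out, and an embryo is named below by its assigned reads in mega-reads (M), from 36.0M to 58.0M in the controls and from 39.2M to 52.8M in the arrested embryos. A single solution was found for all 5 genes in the 6 conditions of 2 embryos, with the exception of cnc in control C12, which has 2. In control C13 the embryos were resolved for oc, ems, btd and croc, and in control C14E the mean alone is given. Of the read numbers recovered 64.1% were even, as when both mates of a pair are counted, so intervals and limits from reads cover counting error only and are too narrow. Nothing in the labels says whether embryos of a condition came from the same parents or day. The mean of CycA, a target of the interference, was still 1799 CPM at C12-15min beside 2626 CPM for control C12, and between 13.4 and 28.8 CPM at the later times.

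The 5 genes differ in build (BDGP6 assembly, Ensembl 115 annotation). oc lies on chromosome X from 8630159 to 8650681 on the minus strand, spans 20523 bp and has 6 transcripts, each of 4 exons. ems lies on chromosome 3R from 13901853 to 13904620 on the plus strand and spans 2768 bp with 1 intron. btd lies on chromosome X from 9694186 to 9697558 on the plus strand and spans 3373 bp with 1 intron. croc lies on chromosome 3L from 21474133 to 21476479 on the minus strand, spans 2347 bp and has no intron. cnc lies on chromosome 3R from 23185580 to 23226711 on the minus strand and spans 41132 bp with 16 transcripts. oc and cnc are thus longer than 92.8% and 96.8% of the 13986 protein-coding genes, while ems, btd and croc are longer than 53.4% to 65.2% of them. Values were counted per gene, so the forms of cnc that differ in role cannot be told apart. The annotation places fzo on the same strand over 2391 bp of cnc, and fzo reached 0.467 CPM in its highest condition mean.

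**Figure D1:**
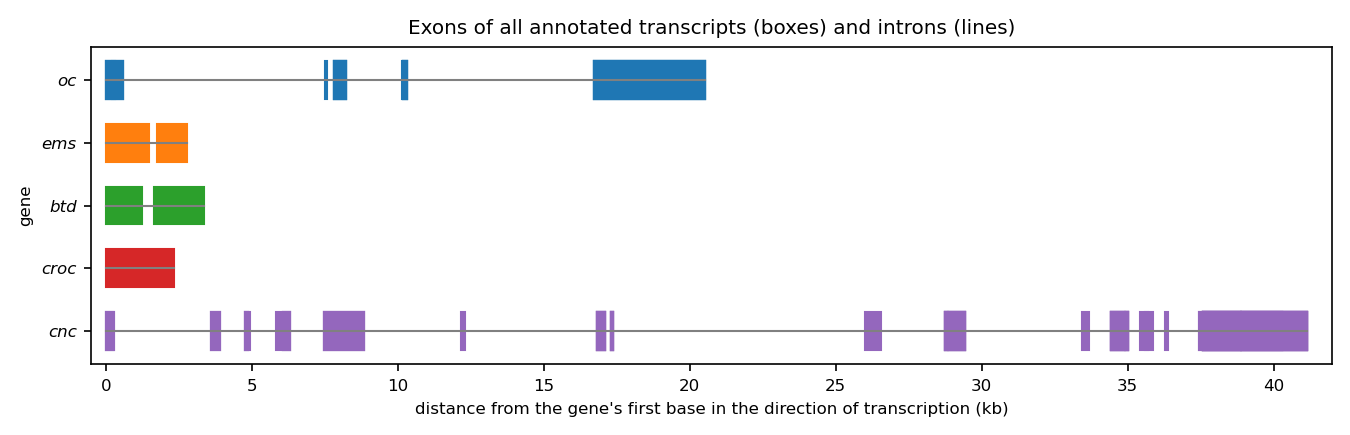
Exons of all annotated transcripts of each gene (boxes) and the sequence between them (lines), by distance in kb from the first base of the gene in the direction of transcription. oc and cnc span 20523 and 41132 bp, whereas ems, btd and croc span 2347 to 3373 bp.

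In the control embryos oc, ems, btd and croc were scarce in cycle 12 and abundant early in cycle 14, and cnc went the other way. In the order C12, C13, C14E and C14L, oc had means of 0.466, 1.10, 59.2 and 50.3 CPM. For ems they were 0.138, 1.44, 58.4 and 22.4 CPM. Both genes were below 1.5 CPM in the means of cycles 12 and 13. The mean of btd was 1.68, 6.08, 48.4 and 27.0 CPM, and that of croc was 0.224, 2.49, 63.9 and 39.1 CPM. btd was thus the most abundant of these 4 genes in cycles 12 and 13, also per kb of exon (0.572 CPM per kb in control C12 against 0.0557 to 0.0955 CPM per kb for the others). For cnc they were 348, 121, 38.0 and 40.1 CPM. In whole-embryo RNA, fewer expressing cells and less RNA per cell cannot be told apart, and embryos of cycle 14 hold more nuclei than embryos of cycle 12.

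By a fold change above 1.5 on the scale of log2(mean CPM + 1), ems, btd and croc were higher in control C13 than in control C12, beside 4.14% of all genes, and cnc was lower, beside 11.0% of all genes. The log2 difference of oc, 0.52, did not pass that fold. All of oc, ems, btd and croc were higher in control C14E (11.7% of all genes) and in control C14L (19.5%), and cnc was lower in both (16.6% and 16.0%). From control C13 to control C14E the same 4 were higher (11.7% of all genes) and cnc lower (14.4%). Of the control conditions, control C14E had the highest means of the 4 rising genes. From control C14E to control C14L the log2 differences were -1.35 for ems, -0.82 for btd and -0.69 for croc, each beyond 1.5-fold lower (9.16% of all genes), of which ems alone also passed a fold of 2, and those of oc and cnc were -0.23 and 0.08, with none of the 5 past the fold upwards (20.0% of all genes). These control steps through C14E have no spread of their own, since its embryos were not resolved.

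The single embryos of control C12 were unlike each other in these genes. The embryo of 58.0M reads had 54 reads of oc, 16 of ems, 182 of btd and 26 of croc, and the embryo of 45.9M reads had 0, 0, 10 and 0. A count of 0 there allows up to 0.0653 CPM. The first of them thus had 3.14 CPM of btd against 0.218 CPM, a difference larger than that of 98.4% of genes of at least 1 CPM in these 2 embryos. In control C13 the 53.2M embryo had 10.01 CPM of btd and 5.08 CPM of croc, and the other embryos had 4.74 and 3.50 CPM of btd and 1.07 and 1.33 CPM of croc. The control C13 embryos had 0.513 to 2.37 CPM of ems and 0.501 to 1.69 CPM of oc, against at most 0.276 and 0.931 CPM in control C12. Control C13 was not resolved for genes outside these 4, so no share of all genes can be set beside these ranges. The 2 control C14L embryos were close to each other, at 52.2 and 48.4 CPM of oc, 19.5 and 25.2 CPM of ems, 26.9 and 27.1 CPM of btd, and 41.1 and 37.1 CPM of croc.

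**Figure D2:**
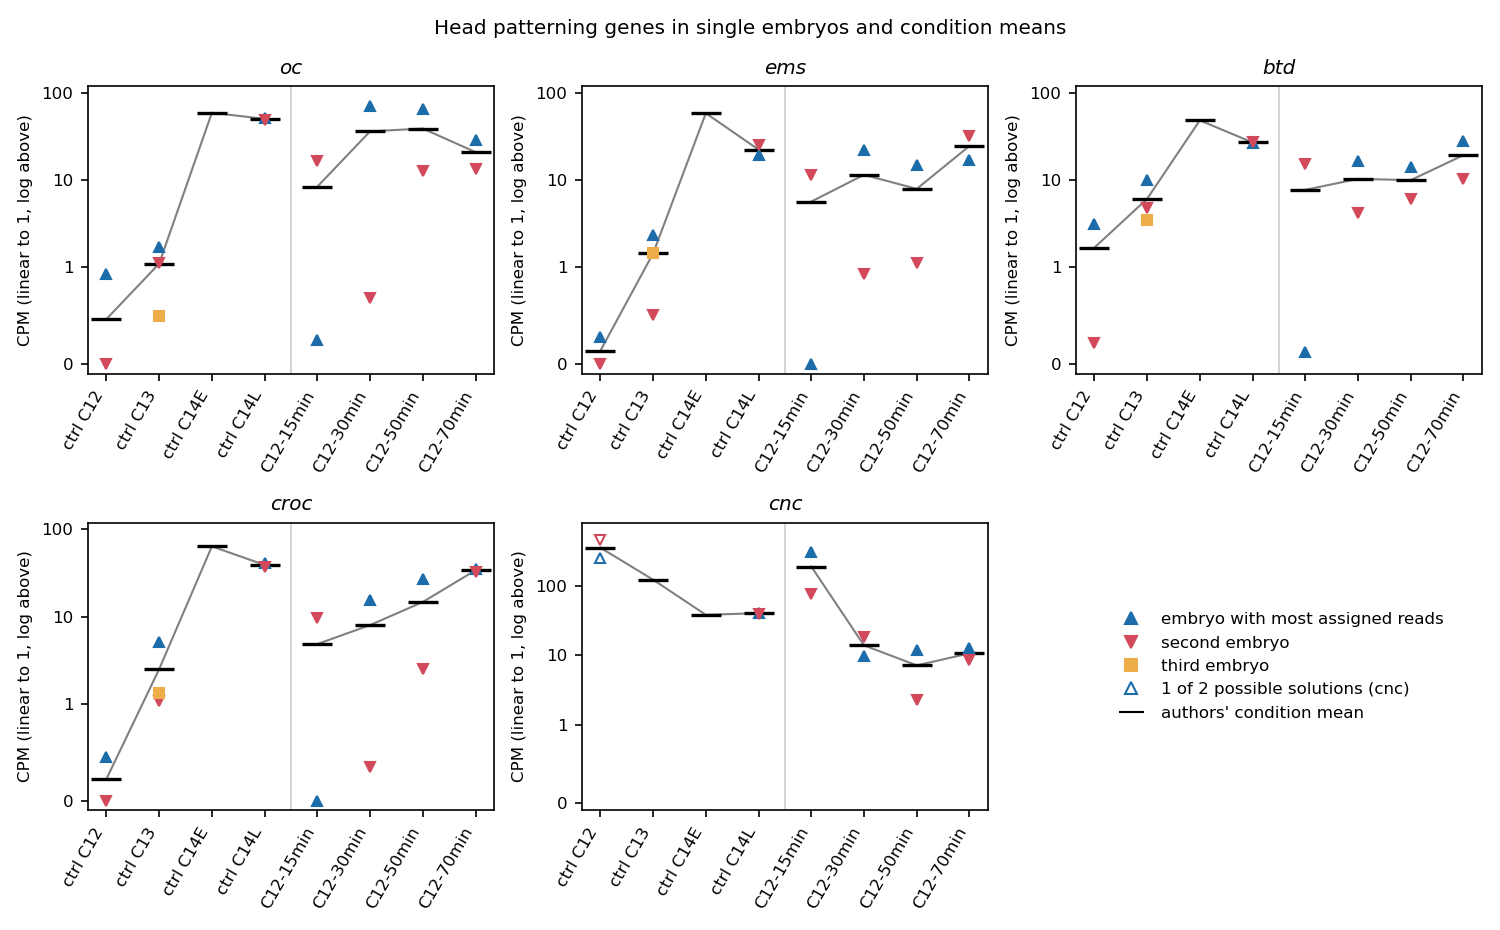
CPM of each gene (linear up to 1, logarithmic above) in each condition, with the control conditions left of the grey line and the arrested conditions right of it; black bars are the authors' means, and symbols are single embryos ordered by assigned reads. The embryos at 15, 30 and 50 minutes stand far apart in oc, ems, btd and croc, for example 71.7 and 0.688 CPM of oc at C12-30min, whereas the control C14L embryos nearly coincide.

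oc, a homeodomain gene that responds directly to Bicoid, had its highest arrested means in the middle of the series. After 15, 30, 50 and 70 minutes it was 8.41, 36.2, 39.0 and 21.0 CPM. The embryos were 0.246 and 16.6 CPM at 15 minutes, 71.7 and 0.688 CPM at 30 minutes, 65.2 and 12.8 CPM at 50 minutes, and 28.6 and 13.3 CPM at 70 minutes. At 15 and 30 minutes 1 of the 2 embryos was thus within the range of control C12 (0 to 0.931 CPM), and at 50 and 70 minutes both were above it. The highest single value of oc in the arrested embryos, 71.7 CPM, was above both control C14L embryos. In the limma fit to 12 embryos the log2 difference from control C12 was 4.45 ± 1.70 (SE) at 50 minutes (adjusted p = 0.0614) and 3.89 ± 1.70 at 70 minutes (adjusted p = 0.0767), neither past 0.05.

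ems, a homeodomain gene whose domain in the head lies behind that of oc, had means of 5.67, 11.5, 7.93 and 24.6 CPM at 15, 30, 50 and 70 minutes. The embryos were 0 and 11.3 CPM, then 22.1 and 0.934 CPM, then 14.7 and 1.13 CPM, and lastly 17.2 and 32.1 CPM. The count of 0 at 15 minutes, in the 48.7M embryo, allows up to 0.0616 CPM. Both C12-70min embryos were above both C12-50min embryos, and they spanned the control C14L range of 19.5 to 25.2 CPM. The log2 difference from control C12 was 4.44 ± 1.43 (SE, 2 embryos a group) at 70 minutes (limma adjusted p = 0.0253).

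btd, the zinc finger gene, changed least of the 4 in the condition means, at 7.73, 10.3, 9.99 and 19.3 CPM. Its embryos were 0.123 and 15.3 CPM at 15 minutes, 16.4 and 4.23 CPM at 30 minutes, 13.97 and 6.01 CPM at 50 minutes, and 28.2 and 10.4 CPM at 70 minutes. From 30 minutes on each embryo was above the control C12 range of 0.218 to 3.14 CPM. At 70 minutes the embryos differed 2.72-fold, more than 97.7% of genes did, and the higher of them was above both control C14L embryos. The limma log2 difference from control C12 at 70 minutes was 3.02 ± 1.20 (SE), with an adjusted p of 0.0555.

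croc, the forkhead gene, had means that were higher at each later time, with 4.84, 7.99, 14.7 and 34.0 CPM. The embryos were 0 and 9.68 CPM at 15 minutes, 15.6 and 0.344 CPM at 30 minutes, and 26.9 and 2.52 CPM at 50 minutes. At 70 minutes they were 35.4 and 32.6 CPM, the smallest difference between embryos among the 5 genes in that condition (1.09-fold). Both were above every earlier arrested embryo, and ems and croc were so placed against the 50-minute embryos beside 31.0% of genes. The limma log2 difference from control C12 was 4.86 ± 1.41 (SE) at 70 minutes (adjusted p = 0.0162).

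cnc, the bZIP gene, was lower in the arrested embryos than in any control condition from 30 minutes on. Its means were 187, 13.9, 7.17 and 10.6 CPM in order of time, against a control low of 38.0 CPM (C14E). The embryos were 299 and 75.4 CPM at 15 minutes, 9.76 and 18.0 CPM at 30 minutes, 12.04 and 2.30 CPM at 50 minutes, and 12.7 and 8.57 CPM at 70 minutes. The control C12 embryos were 246 and 450 CPM in one solution and 326 and 370 CPM in the other. The C12-15min embryos therefore overlapped control C12 in the first solution and lay below it in the second, and those of the later conditions lay below it in both. The limma log2 difference from control C12, with the wider solution, was -4.55 ± 0.75 (SE) at 30 minutes (adjusted p = 0.0220), -5.67 ± 0.75 at 50 minutes (adjusted p = 0.00343) and -4.86 ± 0.75 at 70 minutes (adjusted p = 0.00138).

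Over the arrested conditions, oc, ems, btd and croc were all higher than control C12 by a fold above 1.5 between the means, and cnc was lower, in each of the 4. The share of all genes past that fold upwards was 2.76% at 15 minutes, 6.99% at 30 minutes, 11.5% at 50 minutes and 16.8% at 70 minutes, and downwards it was 0.75%, 16.1%, 17.2% and 18.6%. A mean of 2 embryos can pass this fold through 1 embryo. Of oc, ems, btd and croc, the number in which both arrested embryos were above both control C12 embryos was 0 at 15 minutes, where 8.71% of genes of at least 1 CPM were, with 5.53% below. It was 2 (ems and btd) at 30 minutes, 4 at 50 minutes and 4 at 70 minutes, where 28.7%, 33.5% and 29.7% of genes were. In control C14L it was 4, and cnc was below, beside 43.1% and 42.5% of genes. Both control C12 embryos are under 1 CPM in oc, ems and croc. These genes reach a mean of 1 CPM only through the other embryos, so their place above is partly set by that limit. Both embryos were below control C12 in cnc at 30, 50 and 70 minutes, as were 46.8%, 49.2% and 56.2% of genes.

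The limma test, on log2(CPM + 1) of 12 embryos in 6 groups and with p-values adjusted over 5629 genes, called none of the 5 genes at C12-15min. No gene at all was called there (0.0% in either direction), 13 genes had an unadjusted p under 0.05, and none of the 5 was among those 13. At C12-30min and at C12-50min cnc alone was called, as lower (23.5% and 34.7% of genes lower, 1.08% and 7.11% higher). At C12-70min ems and croc were called as higher (16.7% of genes) and cnc as lower (40.1%). Between control C14L and control C12 all 5 were called, cnc as lower (26.7% of genes, adjusted p = 0.00777) and the others as higher (27.3% of genes, adjusted p from 0.0139 to 0.0288). Without a filter on low values, of these 5 calls those of croc and cnc remained (22.7% of genes higher and 11% lower), and oc, ems and btd had adjusted p from 0.0508 to 0.0522. Centring the embryos on genes of at least 10 CPM moved the shares of genes called at 70 minutes to 32.5% higher and 26.2% lower, at 50 minutes to 19.4% and 29.7%, and in control C14L to 36% and 21%. The means of oc, ems and croc in control C12 are under 1 CPM, so these genes passed the filter of a mean of 1 CPM only through the conditions in which they are higher.

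These calls rest on few embryos, and all comparisons with control C12 share the same 2 control embryos. A fit without 1 of the 4 embryos compared leaves 1 embryo in a group, so effect sizes alone are given. The calls of ems and croc at 70 minutes ended in all such fits, with log2 differences of 4.01 to 4.87 and 4.59 to 5.13. The call of cnc at 30 minutes ended without either control C12 embryo (-4.98 and -4.11) or without the 40.8M embryo (-4.13). Fewer of all genes were called in these fits too, and at 30 minutes most calls of lower genes ended. The calls of cnc at 50 and 70 minutes remained. Between control C14L and control C12, no fit without 1 of the 4 embryos compared kept all 5 calls, and fewer of all genes were called too. Without the 45.9M control C12 embryo none of the 5 calls remained. The log2 differences were then 4.73 for oc, 4.18 for ems, 2.76 for btd, 4.79 for croc and -2.59 for cnc. A fit to the 2 compared groups alone, chosen after the data had been seen, called oc and croc at 50 minutes and all 5 genes at 70 minutes beside cnc at 30 minutes. It called 0.488%, 15.8% and 20.2% of genes as higher at 30, 50 and 70 minutes and 13.8%, 35.9% and 46.7% as lower.

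The 2 embryos of a condition differed in the same order for oc, ems, btd and croc at each of 15, 30 and 50 minutes. At 15 minutes the 39.2M embryo was the higher one in all 4, at 30 minutes the 40.8M embryo, and at 50 minutes the 48.3M embryo. The lower embryo held 18 reads of the 4 genes together at 15 minutes against 2077, then 252 against 5133, then 1037 against 5839. The condition means of these times are thus mostly the level of 1 embryo. At 70 minutes the sums were 5776 and 3987 reads, with oc and btd higher in the 52.8M embryo and ems higher in the 45.2M embryo. cnc was lower in the embryo with more of the 4 other genes at 15 minutes (75.4 against 299 CPM) and at 30 minutes (9.76 against 18.0 CPM), and higher in it at 50 minutes (12.04 against 2.30 CPM).

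Embryos of these conditions also differed in other genes. The share of genes of at least 1 CPM that differed over 2-fold between the embryos was 37.7% at 15 minutes, 27.5% at 30 minutes and 17.9% at 50 minutes, against 6.96% at 70 minutes, 10.9% in control C12 and 1.80% in control C14L. The limma fit takes the spread as equal in all 6 groups. At 30 minutes the log2 difference between the embryos was larger for oc (5.43) than for 99.9% of these genes, and at 50 minutes it was larger for croc (2.99) than for 99.8% of them. Among 3077 other genes over 1.5-fold higher in control C14L than in control C12, 62.4% were above the control C12 mean in the 40.8M embryo and 38.9% in the 40.7M embryo at 30 minutes, and 70.6% in the 48.3M embryo and 56.9% in the 46.1M embryo at 50 minutes. At 15 minutes the order was the opposite of that of oc, ems, btd and croc, with 44.2% in the 39.2M embryo and 47.8% in the 48.7M embryo. The control C12 embryos themselves had 34.5% (58.0M) and 44.2% (45.9M), which lie further apart than the shares at 15 minutes. A narrower set of 445 of these genes, under 2 CPM in control C12 and of at least 10 CPM in control C14L, was chosen after those values had been seen. In it 33.7% of genes were higher in the 48.7M embryo at 15 minutes, 96.2% in the 40.8M embryo at 30 minutes, 88.5% in the 48.3M embryo at 50 minutes and 49.7% in the 52.8M embryo at 70 minutes. The part of these wider differences in the values of oc, ems, btd and croc was not tested.

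The 4 rising genes did not keep the same proportions from embryo to embryo. Per kb of exon, btd was the highest of the 4 in both control C12 embryos, in all 3 control C13 embryos, in the 39.2M embryo at 15 minutes and in the lower embryo at 30 minutes. In that last embryo it made up 68.3% of the 252 reads of the 4 genes (exact 95% interval 62.1% to 74.0%), near the 65.5% of 278 reads (59.6% to 71.0%) of the higher control C12 embryo. oc was the highest per kb in the other embryo at 30 minutes, with 14.2 CPM per kb, and in both embryos at 50 minutes, with 12.9 and 2.55 CPM per kb. croc was the highest per kb in both embryos at 70 minutes (15.1 and 13.9 CPM per kb) and in both control C14L embryos (17.5 and 15.8 CPM per kb). The 48.7M embryo at 15 minutes, with 18 reads, gives no order.

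The balance between oc and croc differed between the times of arrest. oc took 82.1% of the reads of both genes in the higher embryo at 30 minutes (exact 95% interval 80.8% to 83.3%), and 70.8% (69.4% to 72.1%) and 83.6% (80.7% to 86.3%) in the 2 embryos at 50 minutes. At 70 minutes it took 44.7% (43.0% to 46.4%) and 29.0% (27.0% to 31.0%). In control C14L it took 55.9% (54.6% to 57.3%) and 56.6% (55.0% to 58.2%). Both C12-70min embryos were thus below both control C14L embryos in this share, and all embryos at 30 and 50 minutes were above them, though the lower embryo at 30 minutes (66.7% of 42 reads, 50.5% to 80.4%) reached their range in its interval. In cycle 13, at low counts, the share was 25.0%, 51.0% and 27.3% in the 3 control embryos. The 58.0M control C12 embryo had 67.5% of 80 reads (56.1% to 77.6%), so a high share was not particular to arrest. At 15 minutes the 39.2M embryo had 63.1% (60.1% to 66.1%), and the other held 12 reads of both genes. In control C14E, known by its mean alone, oc had 59.2 CPM and croc 63.9 CPM. With 2 embryos against 2, an exact permutation test cannot go below a two-sided p of 0.333.

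**Figure D3:**
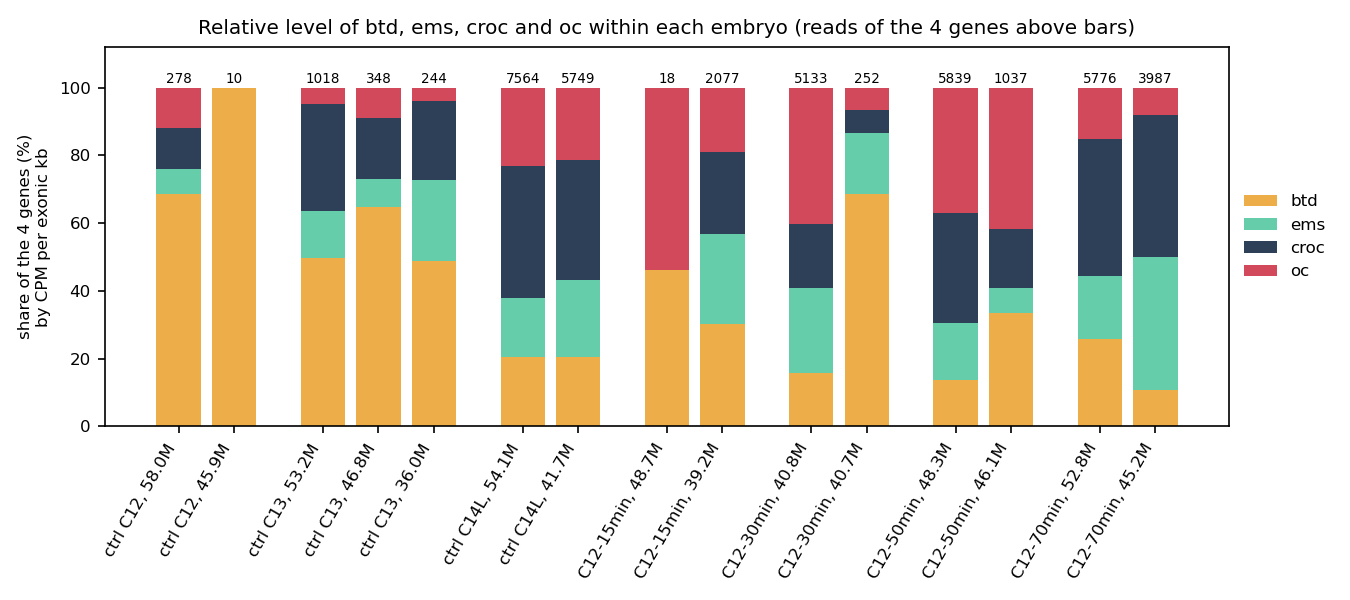
Share (%) of btd, ems, croc and oc in the summed CPM per exonic kb of these 4 genes in each embryo, named by condition and assigned reads (M); the number above a bar is the reads of the 4 genes together. btd leads in control C12 and control C13, oc in the 40.8M embryo at 30 minutes and both embryos at 50 minutes, and croc at 70 minutes and in control C14L; bars over 10 or 18 reads carry little information.

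Late arrested and late control embryos were then compared, as the last points of both series. At C12-70min the mean of ems was 110% of that of control C14L, croc was at 86.8%, btd at 71.4%, oc at 41.6% and cnc at 26.5%. oc and cnc were lower by a fold above 1.5, as were 21.4% of all genes. Both embryos lay below both control C14L embryos in oc, croc and cnc, as they did for 62.0% of genes of at least 1 CPM. In the limma fit none of the 5 passed an adjusted p of 0.05 (10.7% of genes were called higher and 36.4% lower). Of the 5, 1 (cnc) had an unadjusted p under 0.05, beside 3177 of all 5629 genes tested. The log2 difference of cnc was -1.84 ± 0.75 (SE, adjusted p = 0.0676) and that of oc was -1.32 ± 1.70 (adjusted p = 0.540). Fitted to the 2 groups alone, a choice made after the data had been seen, oc (adjusted p = 0.00931) and cnc (adjusted p = 0.000369) were called as lower, beside 52.2% of genes lower and 16.1% higher. Set against control C14E, the condition of the highest control means of oc, ems, btd and croc, all 5 were lower at C12-70min beyond 1.5-fold (10.7% of all genes, with 7.5% higher), with oc at 59.2 CPM there and 21.0 CPM at C12-70min. The median difference of 3737 genes of at least 10 CPM in every condition was -0.29 on the log2 scale in control C14L and -0.13 at C12-70min, relative to control C12.

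The regulators above these genes were read from a list of 5. bcd, which encodes Bicoid, had means of 330, 2.40 and 0.453 CPM in control C12, C14E and C14L. Under arrest they were 322, 215, 177 and 15.3 CPM at the 4 times. It was also lower in the embryo with more oc, ems, btd and croc at 30 minutes (129 against 301 CPM) and at 50 minutes (104 against 251 CPM), and nearly equal in the embryos at 15 minutes (317 and 326 CPM). tor, the Torso receptor, had 207 and 1.88 CPM in control C12 and C14L, and 114 CPM after 70 minutes of arrest. Of 3 regulators tested with limma (bcd, tor and trk, which encodes a ligand of Torso), bcd and tor were called as lower than control C12 at 70 minutes, with log2 differences of -4.37 and -0.89 (adjusted p = 0.000784 and 0.0173). hb, a gap gene with maternal and zygotic RNA, had 174, 210, 319 and 58.7 CPM in control C12, C13, C14E and C14L. Under arrest it had 349 CPM at both 30 and 50 minutes. zld, the pioneer factor Zelda, had 953 CPM in control C12, as against 277 CPM after 70 minutes.

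A list of 7 other gap-like genes held slp1, slp2, gt, tll, hkb, kni and knrl. Their values are of whole embryos and not of the anterior cap alone, and the paper images kni transcription in abdominal nuclei. Of the 7, 6 were higher than control C12 by a fold above 1.5 at 15 minutes (2.76% of all genes). All 7 were so at 30, 50 and 70 minutes (6.99%, 11.5% and 16.8% of all genes). Their median log2 difference at 70 minutes was 3.24, that of oc, ems, btd and croc was 4.20, and that of all genes was 0.00. slp2, hkb and knrl were called as higher at 70 minutes with limma, of 6 tested (16.7% of genes). The control C12 means of slp2 and knrl are 0.647 and 0 CPM, so both passed the filter only through conditions in which they are higher. The embryo order of the 4 head genes was found here too: 6 of 6 of these genes with values were higher in the 39.2M embryo at 15 minutes, 7 of 7 in the 40.8M embryo at 30 minutes and 7 of 7 in the 48.3M embryo at 50 minutes. tll, for example, was at 78.6 against 2.96 CPM, at 128 against 4.47 CPM and at 100.8 against 28.6 CPM.

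The 11 genes of head segments and head primordia, which act later, were kn, Dfd, lab, pb, Scr, Optix, so, toy, en, wg and hh. Their values are of whole embryos and not of the head alone, and the paper describes en in segmentally repeated stripes. At C12-70min 10 of them were lower than in the older control C14L by a fold above 1.5 (21.4% of all genes), and none was higher. en was at 3.65 CPM against 87.2 CPM, wg at 6.88 against 118 CPM, Scr at 0.344 against 16.3 CPM and kn, a head patterning gene, at 0.354 against 25.3 CPM. Beside the earlier control C14E the means at C12-70min went both ways. They were higher for en (0.872 CPM in control C14E), Optix, so, lab, kn, Scr and pb. They were lower for wg (13.7 CPM in control C14E), Dfd, toy and hh. With limma 9 of 10 tested were called as lower, beside 36.4% of genes, Dfd, for example, by 3.18 on the log2 scale (adjusted p = 0.000706). kn, Scr, hh and lab had arrested means of at most 1.10, 0.344, 1.71 and 1.59 CPM. These genes passed the filter only through control C14L. Against control C12, 9 of the 11 were higher at C12-70min by the fold (16.8% of all genes), with a median log2 difference of 1.26, and 6 of 10 were called as higher with limma (16.7% of genes), among them Dfd, Optix, so and en. None of those 6 had a mean above 0.221 CPM in control C12, so they passed the filter only through conditions in which they are higher. pb had its highest mean at 0.818 CPM.

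Among relatives and partners, Sp1, a relative of btd, had 2.93 CPM in control C14L, its highest condition, and 0.340 CPM after 70 minutes of arrest. E5, a relative of ems, was at most 2.43 CPM, at C12-70min. maf-S, the partner of cnc, had 54.0 and 123 CPM in control C12 and C14L, and 63.4 CPM after 70 minutes of arrest. Keap1, which holds a form of Cnc in the cytoplasm, had 18.7, 150 and 48.3 CPM in these conditions. Keap1 was called as higher than control C12 at 70 minutes (limma log2 difference 1.33, adjusted p = 0.0190), and both maf-S and Keap1 as lower than control C14L (adjusted p = 0.0214 and 0.0108). While the mean of cnc fell between control C12 and control C14L, those of both partners were higher in control C14L.

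**Figure D4:**
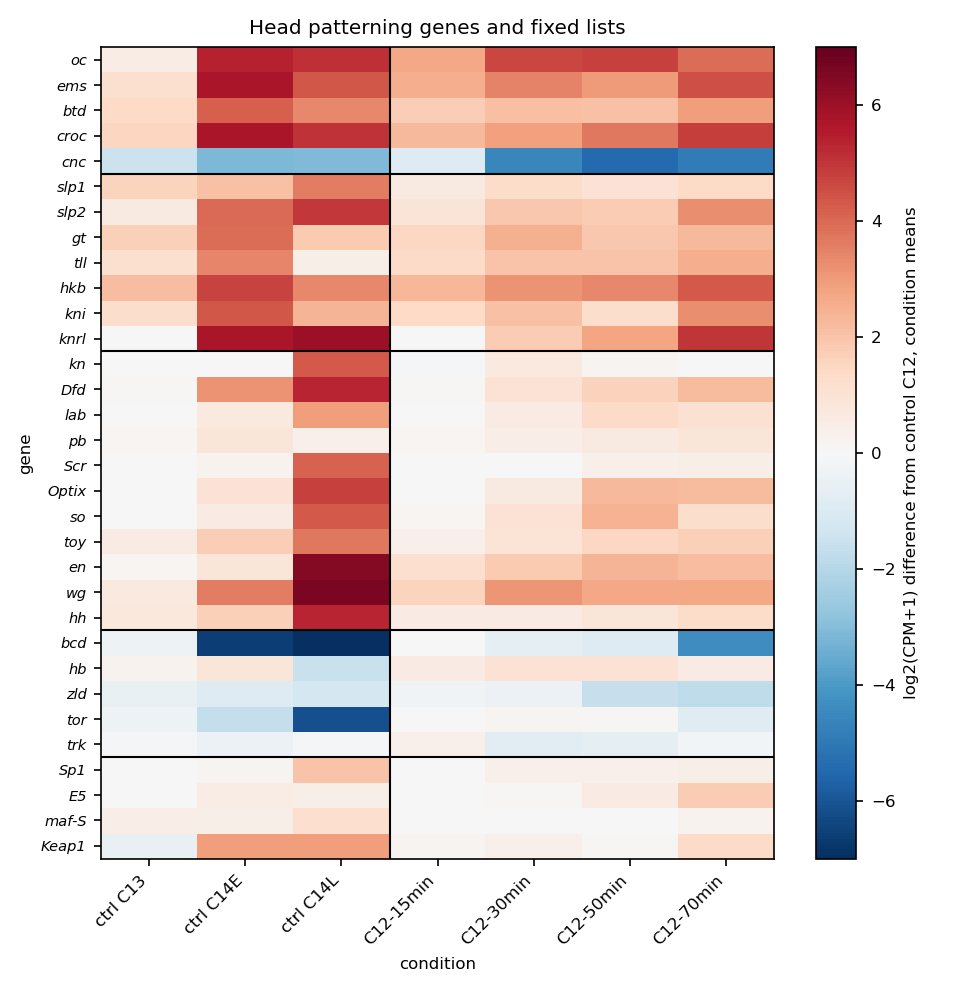
Difference of the log2(mean CPM + 1) of each condition from control C12 (colour), for oc, ems, btd, croc and cnc in the top block and below them the other gap-like genes, the head segment and primordium genes, the upstream regulators, and the relatives and partners. Values are of whole embryos and not of the head alone. In the block of head segment and primordium genes, en had 87.2 CPM late in cycle 14 and 3.65 CPM after 70 minutes of arrest. wg, with a log2 difference of 3.59 in control C14E and 3.07 at C12-30min, was also raised in other conditions. oc, ems, btd and croc are raised in control C14E, control C14L and the arrested conditions.

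Genes of like profile were sought among 6437 genes of at least 10 CPM in some condition, by the distance between log2 profiles over the 8 condition means, each centred on its own mean. For oc the nearest were Egfr, Ppa and vnd (distances 1.35, 1.63 and 1.79). For ems they were robo1, croc and Ppa, with robo1 at a distance of 0.90 and croc at 1.21. For btd they were Eip71CD, Nrt and dpp, and for croc they were robo1, CG12420 and Ir68a. By this distance ems and croc were closer to each other than either was to oc (2.32 and 2.53) or btd (1.81 and 1.99). For cnc the nearest were phol, Larp7 and Acsl, phol with 260 CPM in control C12 and 13.7 CPM at C12-70min. Over the 8 means, which share embryos of unlike level within a condition, Pearson's r was 0.972 between ems and croc, 0.974 between btd and croc and 0.970 between btd and ems, so that it does not set ems and croc apart from btd. It was 0.85 between oc and btd and -0.78 between oc and cnc.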

How the data were processed

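Polyadenylated RNA of single embryos was sequenced in 8 conditions. The authors trimmed reads with Trim Galore 0.6.0, aligned them to dm6 (BDGP6) with STAR 2.5.3a and counted uniquely aligned reads per gene with featureCounts of Subread 1.6.0. The authors then deposited, for every condition, the mean CPM of its embryos as log2(mean + 1). A condition has no SD in the table, and 0 columns of other values were left out. DESeq2, which the submitters' notes name, was not used here.

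The smallest steps of a column gave the assigned reads of its embryos, which came out within 0.0078 of whole numbers, and then the pairs of whole reads that give the 9 decimals of each value up to 2000 CPM. Among genes of at least 10 CPM a single solution was found for 64.3% at C12-70min, where the other 5 pairs of embryos gave 88.7% to 93.0%, so that the fit misses many abundant genes of C12-70min. Embryo numbers of the labels cannot be assigned to these values. The wider of 2 solutions for cnc in control C12 was used.

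Folds between the authors' means used their pseudocount of 1 and a threshold of 1.5. limma 3.58.1 (R 4.3.3, eBayes with trend, Benjamini-Hochberg adjustment) was run on log2(CPM + 1) of 12 embryos in 1 fit of 6 groups, for genes of a mean of at least 1 CPM. The 95% intervals of read shares are exact binomial intervals. Recovery and fit were tested on simulated data. The embryos simulated for the fit had the same dispersion in all groups, so that test does not cover the unequal spread of these embryos. The alternatives were other pseudocounts, filters, fold, scaling and eBayes settings, leaving out each embryo, and 3 added after the data were seen. The text names all 5 members, the 3 genes nearest to each in profile and genes of fixed lists; examples from the lists, and the set of 445 genes, were chosen after their values were seen. Members and lists were chosen with earlier results of these data known. Python 3.11.15, numpy 2.4.6, pandas 2.3.3 and matplotlib 3.10.9 were used.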

Additional observations from a re-analysis of the deposited data

How the results depend on the processing

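No paired analysis was possible because the columns are condition means and the recovered embryos carry no replicate number. No alternative reversed a called direction. Between the means, the 1 gene lower at C12-15min, cnc, became 0 with a fold of 2, and the 3 genes lower in control C14L than in control C14E became 1. The other counts of these 5 genes past the fold stayed within 1.5 times. With limma the count of the 5 called changed as follows. Without a filter it was 0 at C12-30min (main 1) and 2 in control C14L (main 5). At C12-50min (main 1) it was 2 with a pseudocount of 0.1 (10.4% of genes higher and 35.5% lower). It was 2 there with centring on genes of at least 10 CPM and 3 in the fit to the compared groups alone. At C12-70min (main 3) it was 5 with that centring, 5 in the fit to the compared groups alone and 5 in a fit to control C12, control C14L and C12-70min alone. For C12-70min against control C14L (main 0) it was 2 in each of the latter fits, which were added after the data were seen, as was the other solution of cnc, which changed no count. Leaving out 1 embryo leaves 1 in its group, so counts of calls from those fits are not given. At C12-15min no gene was called in any of them. In every other comparison the count of the 5 called moved between these fits, and so did the share of all genes called. Without the control C12 embryo of 45.9M reads none of the 5 was called in control C14L, and fewer of all genes were called there than in the main fit. Without the 40.7M embryo the log2 difference of oc at C12-30min was 5.71. Leaving out an embryo of C12-15min, C12-30min or C12-50min kept the differences between the other groups. These were 4.45 at 50 minutes and 3.89 at 70 minutes for oc, 2.19 and 3.02 for btd, and -1.84 for cnc against control C14L. The spread shared over groups changed, so some of these differences were called then and not in the main fit. The shares of all genes called moved with it. Over all genes tested, the shares called as higher and lower at C12-70min (main 16.7% and 40.1%) were 32.5% and 26.2% with centring, 16.7% and 16.6% without a filter, 10% and 48.8% with a filter of 5 CPM, and 24.9% and 46.5% in the fit to 3 groups. With centring they were 3.77% and 20.6% at C12-30min (main 1.08% and 23.5%), 19.4% and 29.7% at C12-50min (main 7.11% and 34.7%), and 15.9% and 28.5% for C12-70min against control C14L (main 10.7% and 36.4%). Without a filter they were 0.00789% and 0.158% after 30 minutes of arrest, and after 50 minutes 2.03% and 12%. Leaving out 1 embryo, the shares at C12-70min were 9.31% to 19.7% and 24.8% to 45%. By Pearson correlation the nearest genes mostly changed.

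A number of 2 embryos a condition limits every comparison, and the pairs at 15, 30 and 50 minutes, which differ most, enter the spread that limma shares over groups. Embryos of control C14E were not resolved.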
